A study of Rattus norvegicus with 3 samples.

Results

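The circadian clock genes examined here were 10 genes of the molecular clock, Bmal1, Npas2, Clock, Cry1, Per1, Per2, Per3, Dbp, Nr1d1 and Ciart. They were found by name, as the probes whose accession matched one of these symbols in the RefSeq annotation of the rat. They, and the gene lists set beside them, were chosen with earlier results of these data known. All 10 were found among the 38973 genes of the array, 16654 of which had a symbol, with 13 probes on 21 spots. The data came from the cerebellar cortex of male Wistar rats, 9 weeks old, 2 days after surgery. The left (contralateral to the infarct) and the right (ipsilateral) cerebellar cortex were taken after transient occlusion of the right middle cerebral artery (MCAO), and the left cerebellar cortex was taken from a sham-operated control group. No genetic change is stated for any group. The drugs stated are sevoflurane with nitrous oxide as anaesthesia for surgery and a pentobarbital overdose for euthanasia, with no other drug treatment. The RNA of each group was hybridised to 1 array, and each array carried tissue pooled from 4 rats. The contralateral and the ipsilateral pool came from the same rats. The control group had its artery exposed but not opened, and its right side was not measured. Rats entered the MCAO group only with a deficit score within a set range. The clock time of tissue collection is not given in the sources used here.

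With 1 array per group there was no replicate error and no test, so each value below describes pools and not rats. The error given beside a log2 ratio is the one that the scanner software assigns to the spots, here called the scanner error, and it covers neither rats nor hybridisations. The intensities were background-subtracted by that software. Their log2 values were then shifted to a common 75th percentile across arrays, which is called the scaled log2 signal. The shift was -0.077 for the contralateral, 0.31 for the ipsilateral and -0.23 for the control array. The threshold for a call was a log2 ratio beyond 1 in either direction, that is a change of more than 2-fold, as the study set it. Fewer cells of a type and less RNA per cell cannot be told apart in pooled tissue.

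The clock is a feedback loop of transcription that runs in nearly every cell. In its positive limb, BMAL1 pairs with CLOCK or with NPAS2, and the pair binds E-box sequences and switches on its target genes. Among these targets are the genes of the negative limb. PER1, PER2, PER3 and CRY1 form the complex that shuts the pair off, NR1D1 (REV-ERB alpha) represses the Bmal1 gene through ROR elements, and CIART (CHRONO) is a further repressor of the BMAL1 pair. DBP is an output of the loop, a transcription factor that acts on D-boxes in other genes, the Per genes among them. In tissues with a running clock, transcripts driven by E-boxes and the Bmal1 transcript peak at nearly opposite times of day. The cerebellum has a clock of its own.

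The promoter sequences below are shown because they hold elements through which the loop is known to act, in 3 members of the negative limb and in Bmal1. They are read from the RefSeq promoter table of the GRCr8 build, which runs from 250 bases before to 50 bases after each annotated start and held 9 of the 10 members. Cry1 has no entry. Capitals mark the E-box CACGTG, the E'-box CACGTT, the D-box TTATGTAA and the ROR element TAGGTCA, each searched on both strands, and none of these matches overlapped another.
Ciart, chr2:186112247-186112356, minus strand, the 110 bases before the start: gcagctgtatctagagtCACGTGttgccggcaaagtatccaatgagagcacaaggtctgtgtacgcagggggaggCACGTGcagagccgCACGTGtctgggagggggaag
Per2, chr9:99497034-99497193, minus strand, bases 200 to 41 before the start: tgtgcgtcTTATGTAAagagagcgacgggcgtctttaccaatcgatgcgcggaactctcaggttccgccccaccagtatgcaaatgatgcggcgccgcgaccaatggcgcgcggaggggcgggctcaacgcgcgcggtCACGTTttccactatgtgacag
Nr1d1, chr10:84229565-84229664, minus strand, the second annotated promoter, bases 210 to 111 before the start: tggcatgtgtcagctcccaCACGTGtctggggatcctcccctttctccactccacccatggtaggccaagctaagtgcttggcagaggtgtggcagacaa
Bmal1, chr1:176766228-176766327, plus strand, the 100 bases before the start: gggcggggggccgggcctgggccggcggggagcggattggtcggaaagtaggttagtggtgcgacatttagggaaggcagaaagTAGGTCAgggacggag

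Ciart had 3 E-boxes, which began 93, 35 and 21 bases before its start. Per2 had an E'-box 62 bases and a D-box 192 bases before its start. Nr1d1 had an E-box in the promoter shown and an E'-box, on the opposite strand, 174 bases before its other annotated start. The ROR element of Bmal1 began 16 bases before its start. Of 33469 promoters in the table, 6.42% held an E-box, 4.83% an E'-box, 0.893% the D-box and 2.63% the ROR element. None of these 4 motifs was found in the windows of Per1, Per3, Dbp, Npas2 and Clock. A match is a description of the letters, and no binding was measured here.

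No clock gene passed the threshold in any comparison, and Per1 and Per2 lay furthest above and Bmal1 furthest below the control array. In the contralateral cerebellar cortex, 0 of 10 members were past the threshold against the control group, while 11.2% of all 38973 genes were, 4.70% above 1 and 6.48% below -1. The shares of all genes were 16.5% for the ipsilateral cerebellar cortex against the control group, 13.4% above 1 and 3.14% below -1, and 15.2% between the sides, again with 0 of 10 members. These shares contain many dim genes. In 22100 genes all probes were well above background throughout, as they were in 9 of the 10 members, and here the shares were 2.27%, 3.90% and 1.76%. The parts of these shares above 1 were 1.41% contralaterally and 3.10% ipsilaterally, and the parts below -1 were 0.855% and 0.801%. By the average of their probes, the 6 genes of the negative limb and Dbp were above the control array on both sides and the 3 genes of the positive limb below it, but past the scanner error only Bmal1 was below. The probes of Clock disagreed. Of all genes, 55.4% were above and 44.6% below 0 contralaterally, and 65.2% were above and 34.8% below 0 ipsilaterally. Of the 22100 genes, 52.4% were above and 47.6% below 0 contralaterally, and 55.9% and 44.1% ipsilaterally. Many other genes thus lay on either side, so the sign of 1 member says little by itself. The ratios of both sides use the same control array and the same MCAO rats, so one side is not an independent repeat of the other.

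**Figure D1:**
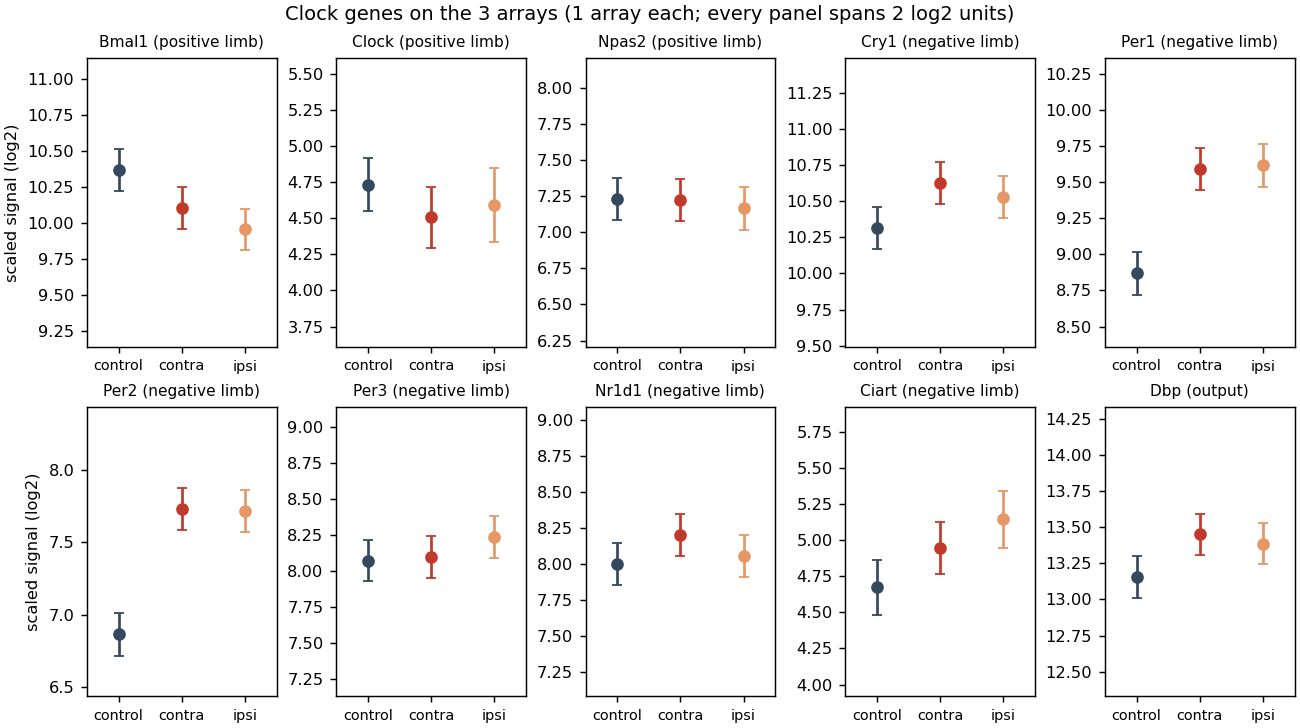
Scaled log2 signal of each clock gene on the control, contralateral (contra) and ipsilateral (ipsi) array, 1 array each, with the scanner error as bars; each panel spans the same range on the log2 scale, and heights of different genes cannot be compared. Per1 and Per2 stand apart from the control array on both sides, Bmal1 lies below it, and Npas2 is level.

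Per2, a core repressor of the loop, had the largest difference. Its scaled log2 signal was 7.73 for the contralateral, 7.72 for the ipsilateral and 6.86 for the control array. Both MCAO arrays were thus higher than the control array and nearly equal to each other. The log2 ratios to the control group were 0.87 contralaterally and 0.85 ipsilaterally, each with a scanner error of 0.21. Of the 22100 genes well above background, 1.97% had a contralateral ratio as high as this and 4.44% an ipsilateral one. Per2 was read from 1 spot, and its promoter is the one shown above with an E'-box and a D-box.

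Per1, the Per gene known to respond fastest to light, hormones and neuronal input, was likewise higher on both MCAO arrays. Its scaled log2 signal was 9.59 for the contralateral, 9.62 for the ipsilateral and 8.87 for the control array. The log2 ratio was 0.72 contralaterally and 0.75 ipsilaterally, each with a scanner error of 0.21. Per1 had 2 probes, and they gave contralateral ratios of 0.66 and 0.78 and ipsilateral ratios of 0.66 and 0.83. Both probes therefore placed the MCAO arrays above the control array by more than the scanner error. Of the genes well above background, 2.86% had a contralateral and 5.52% an ipsilateral ratio as high. Per1 and Per2 were the only members above 0.5, a level passed by 5.31% of these genes contralaterally and 9.80% ipsilaterally, and by 10.5% and 33.2% of all genes.

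Cry1, the partner of the PER proteins in repression, gave scaled log2 signals of 10.63, 10.53 and 10.32 (contralateral, ipsilateral, control). Its log2 ratios of 0.31 and 0.22 exceeded the scanner error of 0.20 on each side, the ipsilateral one only narrowly. Ciart, which had the 3 E-boxes, gave 4.95, 5.14 and 4.67 in the same order. Its ratios were 0.27 with an error of 0.26 and 0.47 with an error of 0.27. Background correction by normexp with an offset of 50, followed by quantile normalization, gave Ciart ratios of 0.16 and 0.15. Quantile normalization alone gave 0.32 and 0.29, and 50 added to each signal gave 0.0985 and 0.18. Both genes were above the control array on both sides.

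Nr1d1 and Per3 differed less than their error. Nr1d1, the repressor of Bmal1, had signals of 8.20, 8.06 and 8.0, and its log2 ratios were 0.20 and 0.058 with a scanner error of 0.20 on each side. Per3, which is not needed for the loop to run, had signals of 8.10, 8.24 and 8.07, and its ratios were 0.023 and 0.16 with errors of 0.20. These genes lay on the same side of the control array as the other repressors, but within the scanner error.

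Dbp, the output gene, was measured on more spots than any other member. Its scaled log2 signal was 13.45 for the contralateral, 13.39 for the ipsilateral and 13.16 for the control array, so that both MCAO arrays were above the control array. The log2 ratios were 0.29 and 0.23, with a scanner error of 0.20 each. One of its probes was spotted in 9 places that were kept, and the ratio at single places ran from 0.22 to 0.34 contralaterally and from 0.19 to 0.33 ipsilaterally. The SD between places was 0.042 and 0.052, and the other probe gave 0.32 and 0.21. The error within an array was thus several times smaller than the scanner error, which carries a fixed share of the signal. For all 2258 probes with replicate spots well above background, the SD of the contralateral ratio had a median of 0.040 and a 95th percentile of 0.13.

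Bmal1, without which the clock stops, was the lowest member on both sides. Its scaled log2 signal was 10.10 for the contralateral, 9.95 for the ipsilateral and 10.37 for the control array. Both MCAO arrays lay below the control array, the ipsilateral one further. The log2 ratio was -0.27 contralaterally and -0.41 ipsilaterally, with a scanner error of 0.20 each, from 1 spot. Bmal1 is the member with the ROR element shown above.

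Npas2, which can stand in for CLOCK, had signals of 7.22, 7.17 and 7.23, and its log2 ratios of -0.0075 and -0.065 were far within the scanner error of 0.21. Clock had signals of 4.51, 4.59 and 4.73 and ratios of -0.22 and -0.14, with errors of 0.28 and 0.32. Its 2 probes disagreed in sign. One, well above background throughout, gave 0.079 and 0.30, and the other, which was not well above background on the ipsilateral array, gave -0.53 and -0.58. By the first probe alone, Clock was thus above the control array, and no direction can be given for it. The lower position of the positive limb was past the scanner error for Bmal1 alone.

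**Figure D2:**
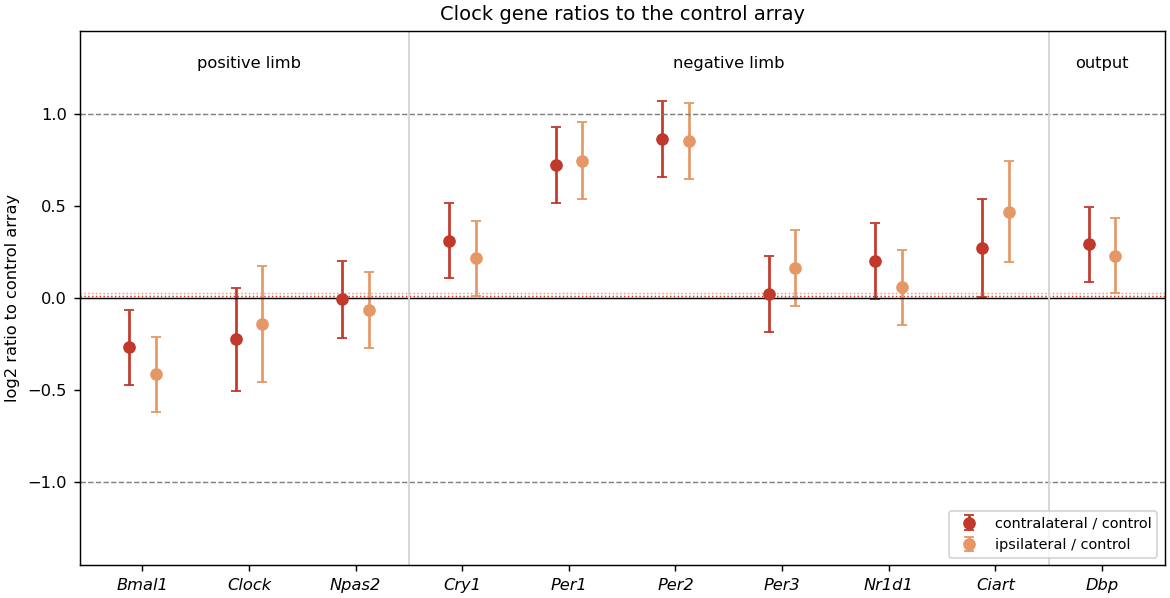
Log2 ratio of each clock gene to the control array for the contralateral and the ipsilateral array, with the scanner error as bars; dotted lines are the medians of 0.012 and 0.030 over the genes well above background, and dashed lines mark the threshold. Ratios run from -0.41 for Bmal1 to 0.87 for Per2, and none crosses the threshold.

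Compared by limb, the positive limb had a median log2 ratio of -0.22 and the negative limb one of 0.29 in the contralateral cerebellar cortex. The difference, positive minus negative, was -0.52. On the ipsilateral side the medians were -0.14 and 0.34, and the difference was -0.49. On both sides the median of the positive limb is the value of Clock itself, with scanner errors of 0.28 and 0.32, so the difference is no more certain than that gene. The median of the genes well above background was 0.012 contralaterally and 0.030 ipsilaterally. By the average of their probes, the values of the limbs did not overlap on either side, with -0.27 to -0.0075 against 0.023 to 0.87 on the contralateral side and -0.41 to -0.065 against 0.058 to 0.85 on the ipsilateral side. By the Clock probe that was well above background throughout, at 0.079 and 0.30, the limbs overlapped on both sides, as they did under 2 of the alternatives. The negative limb owed its upper end to Per1 and Per2. Without these genes its median was 0.24 contralaterally and 0.19 ipsilaterally, and the differences were -0.46 and -0.33. A factor that scales a whole array cancels in the difference between limbs, but it moves each limb. The contralateral difference became smallest under normexp, at -0.24, and was -0.30 when only probes well above background throughout were used, which leaves 1 Clock probe. Without Clock the differences were -0.43 and -0.58. The ipsilateral difference became smallest when 50 was added to each signal, at -0.24.

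**Figure D3:**
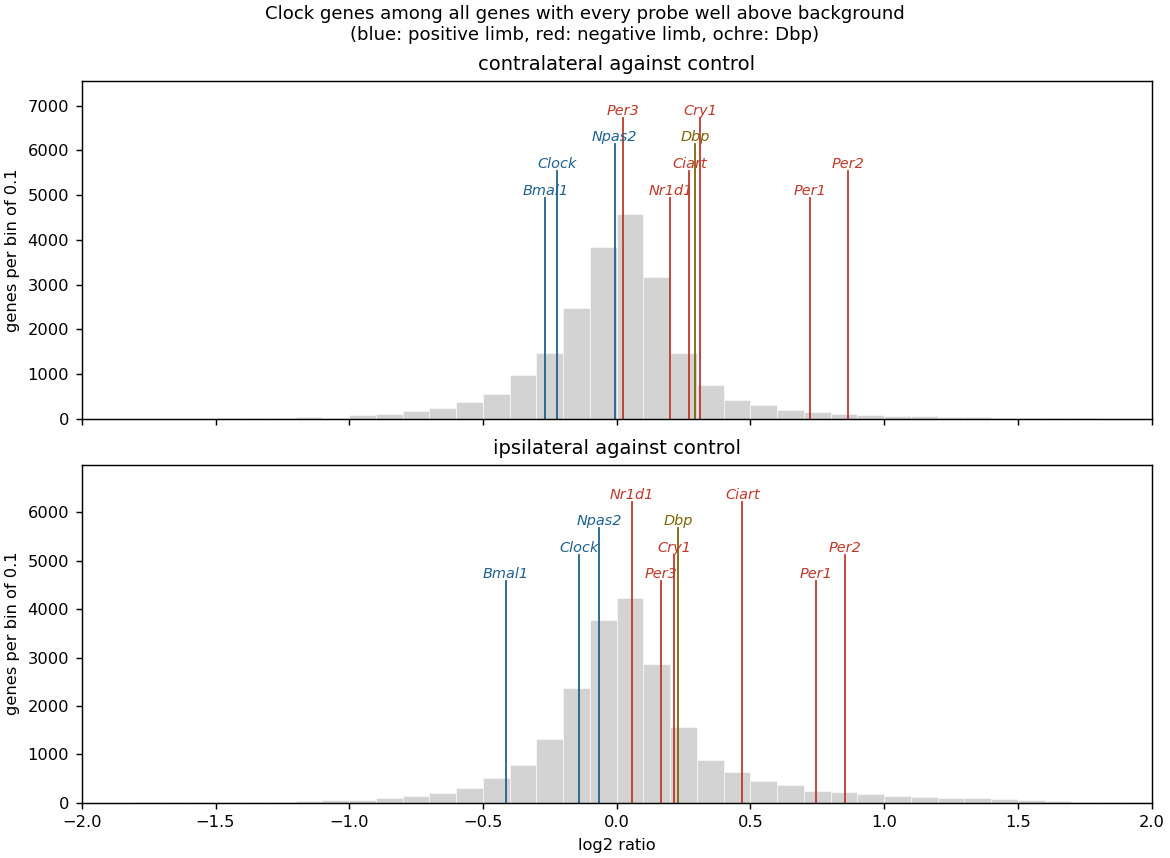
Number of genes per bin of the log2 ratio (grey bars), over the 22100 genes well above background and shown from -2 to 2, with lines at the ratio of each clock gene. Clock is drawn although 1 of its probes was dim on the ipsilateral array. Of the members, Per2 and Per1 lie furthest to the right and Bmal1 furthest to the left, all within the threshold.

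The sign of most members relative to other genes held under other processing, but not always the size. The median ratio of the genes well above background was -0.14 contralaterally and -0.50 ipsilaterally when arrays were not scaled, and with it 4 of the 6 genes of the negative limb, and Dbp at -0.30, were below 0 on the ipsilateral side. With spike-in scaling 3 of the 6 genes, and Dbp at -0.025, were below 0 on that side. Per3 was below 0 contralaterally with both and with the deposited values. The direction of these genes against the control array thus depended on the scaling, while Per1 and Per2 stayed above and Bmal1 below 0 in every alternative. Their sizes depended on it too. Without scaling the ipsilateral ratios were 0.32 for Per2, -0.95 for Bmal1 and 0.213 for Per1, barely past its error of 0.208. Relative to the median under each processing, all 6 genes of the negative limb and Dbp were above it on both sides in the main processing and in the 11 alternatives. No scaling, a common median, spike-in scaling and the deposited values shift all genes of an array alike and leave this distance as it was by construction, and the filters on dim probes altered Clock alone. Quantile normalization, normexp and 50 added were thus the alternatives that could move most members, and the brightest probe could change the ratio only of Clock, Per1 and Dbp. Per2 was above it by 0.60 to 0.87 contralaterally and by 0.58 to 0.87 ipsilaterally, and Per1 by 0.53 to 0.71 and by 0.57 to 0.73. Ciart ran from 0.089 to 0.30 and from 0.15 to 0.44, Nr1d1 from 0.16 to 0.23 and from 0.026 to 0.10, and Per3 from 0.0056 to 0.0475 and from 0.12 to 0.19. Cry1 ran from 0.22 to 0.30 and from 0.18 to 0.22, and Dbp from 0.21 to 0.28 and from 0.15 to 0.22. Bmal1 was below it by -0.28 to -0.24 and by -0.45 to -0.35. Npas2 was also below it each time, by at most -0.036 and -0.097. Clock was above it on both sides with the brightest probe of each gene and when dim probes were dropped.

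**Figure D4:**
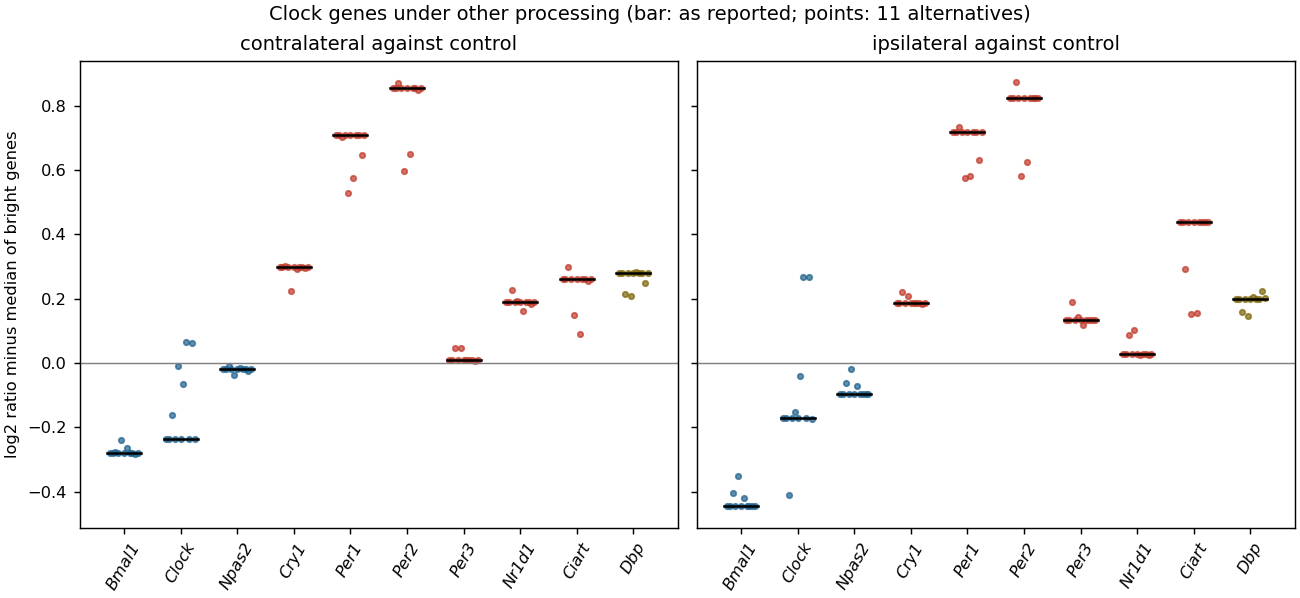
Log2 ratio of each clock gene minus the median over the genes well above background, as reported (bars) and under the alternatives (points), for each side against the control array. Points of Clock fall on both sides of 0, while those of Bmal1 stay below and those of the negative limb and Dbp stay above.

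Between the contralateral and the ipsilateral cerebellar cortex, no member differed by more than its scanner error in the main processing. This depended on the scaling. Without scaling 8 of 10 members, and with spike-in scaling 5 of 10, were higher on the contralateral side by more than that error, Bmal1 by 0.53 and 0.32. The median of the genes well above background was then 0.37 and 0.16. In the main processing, the log2 ratios of contralateral to ipsilateral ran from -0.20 for Ciart to 0.15 for Bmal1, with 6 of 10 above 0, against 34.6% of all genes and 46.9% of those well above background. Per2 was at 0.011 and Per1 at -0.025, each with an error of 0.21. The median was 0.057 for the positive and -0.0066 for the negative limb, a difference of 0.064. The SD between spots of a probe was smaller than the scanner error, with a median of 0.038 and a 95th percentile of 0.13 for this ratio. That percentile is one of SDs over probes and not of ratios, so it sets no limit for a single ratio. Bmal1 at 0.15, Nr1d1 at 0.14, Per3 at -0.14 and Ciart at -0.20 were each read from 1 spot, without an SD of their own. Ciart was at 0.023 after quantile normalization and at 0.010 with normexp, while Bmal1, Nr1d1 and Per3 kept their signs in both. The higher Per1 and Per2 and the lower Bmal1 were thus found on both sides. Whether a member differed between the sides by more than its scanner error depended on the scaling.

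Other genes of the clock were taken from a list of 28, of which 22 matched the array and 20 were well above background with at least 1 probe on every array. Of these 20 genes, 13 were above and 7 below the control array on the contralateral side, with a median log2 ratio of 0.082. On the ipsilateral side 11 were above and 9 below, with a median of 0.0083. This split depended on the scaling. Without scaling all 20 were below 0 ipsilaterally, the highest being Usp2 at -0.035. None passed the threshold.

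Tef, a relative of Dbp that acts on the same D-boxes, had scaled log2 signals of 13.32, 13.17 and 12.78 (contralateral, ipsilateral, control). Its log2 ratios were 0.54 and 0.39, each with a scanner error of 0.20, so both MCAO arrays were higher in the main processing. Without scaling its ipsilateral ratio was -0.14, so the direction on that side depended on the scaling. Nfil3, the repressor at D-boxes that opposes these factors, was at -0.16 and -0.11, within its error of 0.20. The 3 matched genes of D-box and E-box factors had a median of 0.24 contralaterally and 0.15 ipsilaterally.

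Among the paralogs of members, 3 were measured, and by the average of their probes all were within their scanner error, with medians of 0.082 and 0.11. Cry2 was highest on the contralateral side, at 0.14, and Nr1d2 on the ipsilateral side, at 0.12. The 2 probes of Nr1d2 disagreed in sign. The brighter one, at 12.74 on the control array, gave 0.33 and 0.26 in the main processing, each past its error of 0.20. The dimmer one, at 5.97 there, gave -0.16 and -0.0235, within its errors of 0.21 and 0.22. Rorb, a receptor that opposes NR1D1 at ROR elements, was lowest, at 0.020 and -0.022. Bmal2 was well above background on the ipsilateral array only, through 1 of its 2 probes, and was at least 1.46-fold higher there than on the control array.

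The 6 measured genes for the stability of PER and CRY had medians of 0.14 and 0.030. Usp2, a deubiquitinase whose transcript is driven by the clock, was highest, with log2 ratios of 0.58 and 0.50 and an error of 0.20. Its 2 probes gave 0.87 and 0.30 on the contralateral side. Csnk1e, a kinase that marks PER for degradation, was lowest, at -0.029 and -0.13. Fbxl21 was well above background on the control array only and was at least 1.15-fold lower on the contralateral array. Of 8 further genes linked to the clock, Wee1, a cell cycle kinase, was highest, at 0.40 and 0.36 with errors of 0.21. Without scaling the ipsilateral ratios of Usp2 and Wee1 were -0.035 and -0.18. Nampt, the enzyme of NAD salvage, was lowest on the contralateral side, at -0.40 with an error of 0.26, and Timeless on the ipsilateral side, at -0.46 with an error of 0.21. The median of these 8 genes was -0.054 and -0.044.

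**Figure D5:**
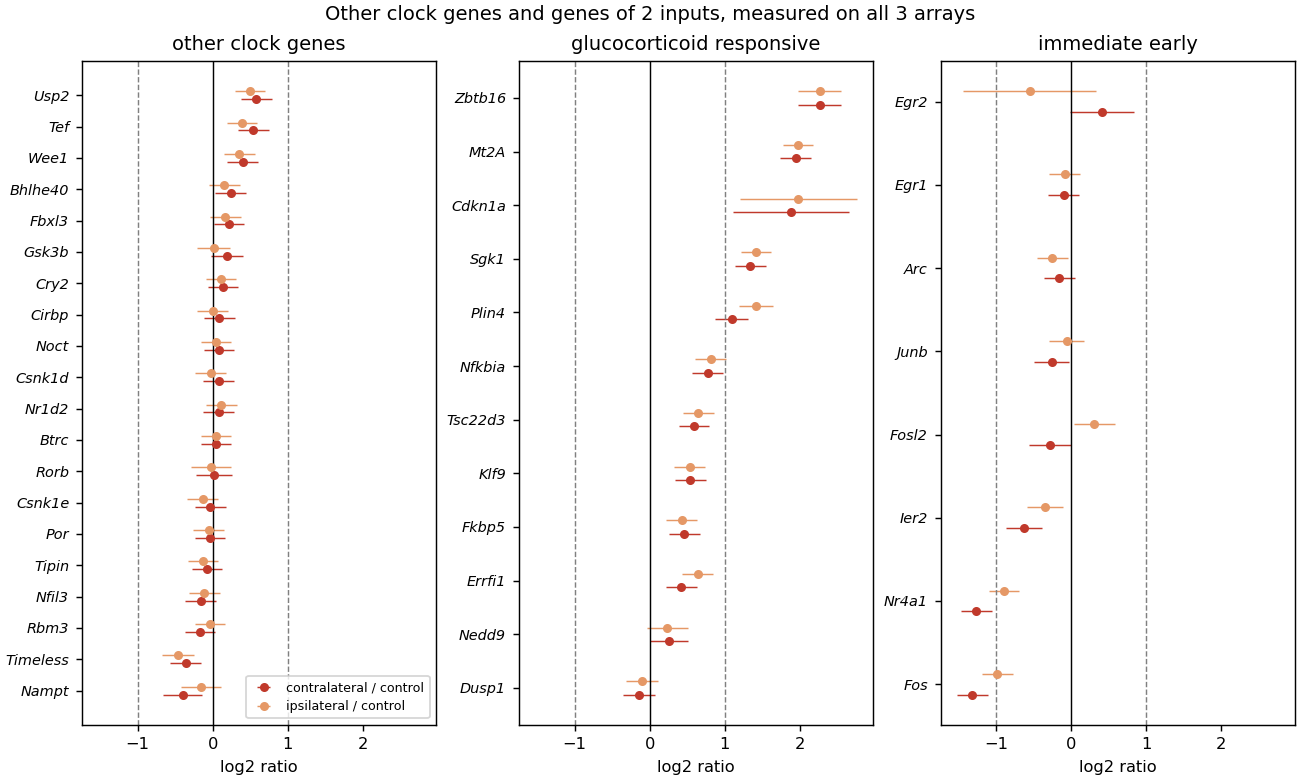
Log2 ratios to the control array for further clock genes, for glucocorticoid-responsive genes and for immediate early genes that were well above background with at least 1 probe on all 3 arrays; bars are the scanner error and dashed lines mark the threshold. Most glucocorticoid-responsive genes lie to the right of 0, most immediate early genes to the left, and the further clock genes lie around 0.

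Per1 is also a direct target of the glucocorticoid receptor and of the factors that neuronal activity switches on. Genes of both inputs were therefore set beside it. In each list, the brightest gene is the one with the highest signal on average over the arrays. Signals of different probes are not on a common scale, so this choice and the summed signal of a list follow the probes and not the transcripts. Of 14 glucocorticoid-responsive genes, 13 were measured on the contralateral and control arrays, 11 of them above 0 and 5 above 1, with a median log2 ratio of 0.59. On the ipsilateral side 12 were measured, 11 above 0 and 5 above 1, with a median of 0.73. Of the 22100 genes, 1.41% and 3.10% were above 1 on these sides, and of all genes 4.70% and 13.4%. The 22100 genes leave out Zbtb16 and Cdkn1a, both above 1, since a probe of each was dim on the control array. Cdkn1a was at 1.88 and 1.98, with errors of 0.77 and 0.78. Zbtb16, a transcription factor, was highest, at 2.27 and 2.26, although 1 of its 3 probes was not well above background on the control array. Mt2A, a metallothionein and the brightest of the list, was at 1.95 and 1.98, and Dusp1 was lowest, at -0.15 and -0.10. The log2 of the summed signal of the list was 15.09 for the contralateral, 15.12 for the ipsilateral and 13.85 for the control array. Pdk4 was not well above background on any array. The counts of this list depended on the scaling. Without scaling Sgk1 and Plin4 were below 1 on the ipsilateral side, and Plin4 also on the contralateral side. Fkbp5, Nedd9 and, barely, Klf9 were then below 0 on the ipsilateral side. Most genes of the list, and Per1 and Per2, were higher on the same arrays. The part of the glucocorticoid input in the Per1 and Per2 ratios was not tested.

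The immediate early genes, which follow neuronal activity, lay mostly on the other side of the control array. Of 10 genes, 8 were measured on the contralateral and control arrays, 7 of them below 0 and 2 below -1, with a median of -0.27. On the ipsilateral side 7 of 9 were below 0 and none below -1, with a median of -0.25. Of the 22100 genes, 0.855% and 0.801% were below -1. Fos was lowest, at -1.32 and -0.98, each with a scanner error of 0.21. Fosb was too dim contralaterally to be well above background and was at least 2.44-fold lower there than on the control array, while ipsilaterally it was at 0.30 with an error of 0.28. Nr4a1, the brightest of the list, was at -1.26 and -0.90. Egr2 was highest on the contralateral side, at 0.41 with an error of 0.43, and Fosl2 on the ipsilateral side, at 0.31 with an error of 0.27. The log2 of the summed signal was 11.18, 11.37 and 11.98 (contralateral, ipsilateral, control). The ipsilateral counts depended on the scaling. Without scaling Fosb and Fosl2 were also below 0 on that side, and Fos, Nr4a1 and Egr2 were below -1.

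The tissue label was checked against markers. Purkinje cell, granule cell and Bergmann glia markers were all well above background on the 3 arrays. The Purkinje cell list had medians of 0.14 contralaterally and 0.15 ipsilaterally over 5 genes, with Itpr1, its brightest gene, highest at 0.22 on the contralateral side, Pvalb highest at 0.26 on the ipsilateral side, and Pcp2 lowest at -0.037 and -0.039. The granule cell list had medians of -0.098 and -0.076 over 5 genes. Its brightest gene, Cbln1, was at -0.098 and -0.081, Gabra6 was highest at 0.15 and 0.23, and Zic1 at -0.19 and Neurod1 at -0.17 were lowest. The Bergmann glia list had medians of 0.14 and 0.15 over 4 genes. Aldoc, its brightest gene, was at 0.27 and, highest ipsilaterally, at 0.44, Gdf10 was highest on the contralateral side at 0.39, and Hopx was lowest at -0.072 and -0.0018. The log2 of the summed signal (contralateral, ipsilateral, control) was 17.67, 17.67 and 17.53 for the Purkinje cell list, 16.09, 16.10 and 16.16 for the granule cell list, and 17.90, 18.05 and 17.63 for the Bergmann glia list. The sum of the Bergmann glia list was close to the signal of Aldoc alone, at 17.80, 17.97 and 17.53, and thus follows this gene.

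Some markers of neighbouring tissue differed more than the clock genes did. Choroid plexus markers had a median of -0.675 over 5 measured genes contralaterally and 0.38 over 6 ipsilaterally. Ttr, the brightest, was at -1.73 and 1.19, Otx2 was highest on the contralateral side at -0.025, and Clic6 lowest on the ipsilateral side at -0.31. The log2 of the summed signal of this list was 13.38, 16.22 and 15.05 (contralateral, ipsilateral, control). Between the sides its median was -0.89, while no member differed between the sides by more than 0.20 in size in the main processing. Meningeal markers had medians of -0.85 and -0.37 over 3 genes, with Igf2 lowest at -0.89 and -0.54, Dcn highest at -0.0325 and 0.23, and Col1a2, the brightest, at -0.85 and -0.37. Their log2 summed signal was 12.37, 12.82 and 13.18. Of the blood markers, Hba-a1, the brightest, was at -0.88 and -1.03, and Hbb was at -1.03 on the contralateral side and at least 3.16-fold lower on the ipsilateral array, where it was not well above background. Alas2 was well above background on the control array only. Their log2 summed signal was 10.12, 9.97 and 11.02. The summed signals of meningeal and blood markers were thus lower on both MCAO arrays, as Bmal1 was, and their part in the clock gene ratios was not tested.

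Markers of tissues with a strong rhythm of their own, and of the forebrain, were read as well. Of 6 pineal gland markers, 3 were measured, and Crx, Sag and Gngt1 were not well above background on any array. Aanat, the enzyme whose rhythm sets melatonin, was highest on the ipsilateral side, at 0.50 with an error of 0.23, and at 0.27 on the contralateral side. Asmt, the brightest, was at -0.33 and -0.099, and Tph1 was highest on the contralateral side, at 0.35, and lowest on the ipsilateral side, at -0.34, with errors of 0.40 and 0.67. The log2 of the summed signal was 7.34, 7.55 and 7.41. Of 5 markers of the suprachiasmatic nucleus and hypothalamus, 3 were measured, and Six6 was not well above background on any array. Lhx1, which Purkinje cells also express, was the brightest and highest, at 0.28 and 0.20, and Rgs16 was lowest, at -0.12 and -0.15. Vip was well above background on the contralateral array only, and was at least 3.83-fold higher there than on the control array and 2.69-fold higher than on the ipsilateral array. The log2 summed signal of this list was 11.53, 11.45 and 11.27. Of 4 forebrain markers, 2 were measured, with Nrgn at 1.83 and -0.21 and Slc17a7, the brightest and one that granule cells also express, at -0.25 and -0.36, and Tbr1 was not well above background on any array. Their log2 summed signal was 8.29, 7.64 and 7.79. The part of these tissues in the clock gene ratios was not tested.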

How the data were processed

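Gene expression was measured in 3 pools of rat cerebellar cortex on 1-colour Agilent arrays, all on 1 slide. The authors deposited intensity values per spot from Agilent Feature Extraction 12.1.0.3, background-subtracted and not scaled between arrays. They also deposited a table of intensity values, equal to these signals times 1 factor per array. The methods name a normalization to control samples but do not tie it to this factor.

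Control spots and 759 outlier spots were left out, 1 of them a spot of a member. Log2 signals were shifted to a common 75th percentile, and spots of a probe, then probes of a gene, were averaged. Of 39957 accessions, 17622 matched a symbol in the GRCr8 RefSeq annotation. Fold changes were called at a log2 ratio beyond 1, with no test. Limits such as "at least 1.46-fold" use, for the dim array, the higher of its own signal and the lowest signal well above background. Named genes were all members, any other clock gene past the threshold, the highest, lowest and (for input and marker lists) brightest of each list, markers and clock genes not well above background on every array, genes of opposite sign on the sides, and the 5 genes nearest to Dbp. Alternatives were other scalings, the deposited values, 50 added to each signal, normexp, filters on dim probes, the brightest probe, outliers kept and other limb members. Normexp was run with an offset of 50 and was followed by quantile normalization. The steps were tested on simulated data. Python 3.11.15, numpy 2.4.6, pandas 2.3.3, matplotlib 3.10.9, R 4.3.3 and limma 3.58.1 were used.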

Additional observations from a re-analysis of the deposited data

Results flagged for a closer look

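Of 6 choroid plexus markers, 5 were well above background on every array. Of these, 3 had opposite signs on the sides with both values past the scanner error. Kl, the marker too dim contralaterally, was at least 2.31-fold lower there than on the control array. Ipsilaterally it was at 0.45 with an error of 0.30. These differences were not tested because there was 1 array per side. Against the control group, log2 ratios were -1.73 contralaterally and 1.19 ipsilaterally for Ttr, -0.87 and 0.93 for Folr1, and -0.675 and 0.21 for Kcnj13. The ipsilateral value of Kcnj13 was barely past its error of 0.21 and became -0.32 without scaling and -0.044 with spike-in scaling, so that its opposite sign was lost. No clock gene met this condition.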

How the results depend on the processing

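No paired analysis was possible because each group had 1 array and the result comes from no test. The count of members past the threshold stayed at 0 in every comparison and alternative run. Without scaling, the median of the positive and of the negative limb was -0.38 and 0.14 contralaterally, -0.68 and -0.19 ipsilaterally, and 0.44 and 0.38 between the sides. With spike-in scaling they were -0.40 and 0.088 on the ipsilateral side and 0.23 and 0.16 between the sides. Quantile normalization moved the ipsilateral positive limb to -0.41 and the difference between limbs to -0.66. With normexp, the contralateral positive limb was at -0.026 and the difference at -0.24, and the ipsilateral negative limb at 0.18. With 50 added, the contralateral positive limb was at -0.056 and the difference at -0.29, and the ipsilateral negative limb at 0.19 and the difference at -0.24. Both the filter to probes well above background on all 3 arrays and the brightest probe put the contralateral positive limb at -0.0075 and the difference at -0.30, by construction, since 1 Clock probe is dropped. The ipsilateral negative limb was at 0.47 without Cry1, at 0.23 with Dbp, and at 0.19 without Per1 and Per2. This last choice and leaving out Clock were made after seeing the data. No scaling and spike-in scaling shift all genes of an array alike, and other limb members change the genes behind a median. These moves thus also follow by construction. For the moves under quantile normalization, normexp and 50 added the cause was not tested.

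All genes past the threshold numbered 4359 contralaterally, 6440 ipsilaterally and 5939 between the sides. They fell to 110, 140 and 39 with normexp, to 184, 226 and 106 with 50 added, to 551, 957 and 429 with probes well above background on all 3 arrays, and to 2387, 3365 and 2757 with those above it on at least 1 array. Higher calls made up 42.1%, 81.0% and 12.2% of these, against 31.3%, 43.9% and 29.0% without scaling and 51.1%, 54.1% and 46.1% after quantile normalization. Normexp gave 53.6%, 61.4% and 46.2%, spike-in scaling 66.9% ipsilaterally, the filter on all arrays 63.0% contralaterally, and 50 added 64.6% ipsilaterally and 41.5% between the sides. Of 330 recomputed values of single members, 292 moved by less than the scanner error, 38 by more, and none of the called values changed sign, since no member was called.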

Other observations

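The 5 named genes whose ratios lay nearest to those of Dbp were Grina, Mfap5, MAST1, Gnmt and Alox12b, at distances of 0.0011 to 0.012 over 2 ratios. Of 11260 named genes well above background, 418 lay within 0.1 of Dbp, so many genes share its position.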
